A study of Mus musculus with 24 samples.

Results

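The ligand genes described here encode bone morphogenetic proteins (BMPs), growth and differentiation factors (GDFs) of the BMP family and activin subunits. They are Bmp2, Bmp3, Bmp4, Bmp5, Bmp6, Bmp7, Gdf5, Gdf6, Inhba and Inhbb, 10 of the 56748 genes in the count table, and the list was set by name, with earlier results of these data known. All 10 were found in the table. The study sequenced RNA from dental mesenchyme of the first mandibular molar germ of ICR mouse embryos, with no allele and no agent in any group. Undivided mesenchyme at the cap stage (E13, Cap_W) and bell stage (E15, Bell_W) was set beside its lingual part (Cap_L, Bell_L) and buccal part (Cap_B, Bell_B). Both cap stage parts were also grown in vitro for 2 days (Cap_L_2D from the lingual, Cap_B_2D from the buccal part). Each of the 8 groups holds 3 libraries. The germs of several embryos were pooled, the parts were cut by hand with a needle, and the mesenchyme was freed from the epithelium with dispase, so that a library is bulk RNA of a dissected piece and not of 1 animal or 1 cell type.

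BMPs and activins are secreted dimers of the TGF-beta superfamily. They bind pairs of type I and type II serine/threonine kinase receptors. BMPs and the GDFs related to them act mainly through Smad1, Smad5 and Smad9, activins through Smad2 and Smad3, and secreted antagonists such as noggin, gremlins and follistatin bind the ligands outside the cell. In the tooth germ, Bmp4 of the dental mesenchyme is the best known mesenchymal signal to the epithelium and works in a loop with the homeobox gene Msx1. Inhba, which encodes the subunit of activin A, is made by the mesenchyme and is needed for incisors and mandibular molars to pass the bud stage.

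The deposited values are counts of read pairs per gene. The 24 libraries held between 20581720 and 39266497 counts, so that 3 counts, taken as the floor, came to between 0.0764 and 0.146 CPM. CPM are counts scaled to a library total of 1000000, here with TMM factors over all 24 libraries. Differences are log2 ratios (log2 fold changes) with their standard error (SE) from edgeR's quasi-likelihood test, with p-values adjusted by Benjamini-Hochberg over all genes tested. A gene counts as called where its adjusted p is below 0.05 and its log2 ratio exceeds 0.5 in size. Between the parts a ratio is buccal over lingual, so that a negative value is higher in the lingual part, and over time it is later over earlier. For a single gene, exact permutation of 3 against 3 libraries gives no p below 0.10. Replicates of a part were close, with a coefficient of variation beyond counting of 1.77% to 5.87% across genes, against 26.6% in Cap_W and 24.0% in Bell_W. The labels number 3 libraries per group and do not tie them to litters. The study's methods speak both of RNA-seq in triplicate and of 2 biological replicates. Here n counts libraries, and the p-values measure the spread between these libraries, which may be technical. The 10 dental mesenchyme markers, Msx1, Pax9 and Barx1 among them, summed to 3156 to 4609 CPM in every library. The sum does not show that single markers were steady. From Cap_B to Cap_B_2D, Vim went from 1164 to 2133 CPM and Msx1 from 485 to 212. Of the 10 markers, 1 was called up and 3 down there, against 17.9% and 16.6% of all genes. From Cap_L to Cap_L_2D, Vim likewise went from 1097 to 2073 CPM and Msx1 from 460.5 to 271.9. Library Bell_W replicate 3 stood apart, with 2165 CPM over 10 epithelial markers against 506 to 579 CPM in the other two Bell_W libraries. Read pairs that overlap another gene were not counted, which leaves Bmp5 (46.7% of its exon bases shared) and Gdf5 (40.3%) undercounted, so levels between genes are compared per kilobase of unshared exon.

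RefSeq's promoter table (GRCm38.p6) held 5 of the 10 genes: Bmp4, Bmp5, Bmp6, Inhba and Inhbb. The other members are Bmp2, Bmp3, Bmp7, Gdf5 and Gdf6. The 250 bases before the transcription start are shown for Inhba, Inhbb and Bmp5, which among these 5 were furthest below the lingual cultures in the buccal ones, and for Bmp4, which was higher in the buccal ones. Capitals mark matches, on either strand, to the TATA box (TATAAA), the GC box bound by Sp factors (GGGCGG), a homeobox site preferred by Msx1 (CTAATTG), a site bound by Lef1 and other TCF factors (CTTTGA) or a GC-rich Smad site (GGCGCC). None of these motifs overlaps another here, and the set was chosen with these windows in view.
Inhba (chr13:16011601-16011850, plus strand): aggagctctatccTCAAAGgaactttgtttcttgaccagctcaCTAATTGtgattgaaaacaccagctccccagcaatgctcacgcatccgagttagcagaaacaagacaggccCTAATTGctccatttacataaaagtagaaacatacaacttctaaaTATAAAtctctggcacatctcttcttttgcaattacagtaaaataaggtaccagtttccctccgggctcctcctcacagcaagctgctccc
Inhbb (chr1:119422249-119422498, minus strand): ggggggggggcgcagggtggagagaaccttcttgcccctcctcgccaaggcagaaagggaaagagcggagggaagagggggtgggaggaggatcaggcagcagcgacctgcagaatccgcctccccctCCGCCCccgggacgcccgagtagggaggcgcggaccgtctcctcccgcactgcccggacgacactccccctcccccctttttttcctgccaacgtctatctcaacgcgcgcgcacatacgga
Bmp5 (chr9:75775115-75775364, plus strand): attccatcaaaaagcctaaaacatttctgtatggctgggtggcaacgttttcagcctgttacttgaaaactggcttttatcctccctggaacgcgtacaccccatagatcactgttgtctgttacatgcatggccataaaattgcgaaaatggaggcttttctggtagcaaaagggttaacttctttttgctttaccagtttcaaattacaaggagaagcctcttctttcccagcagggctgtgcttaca
Bmp4 (chr14:46390670-46390919, minus strand): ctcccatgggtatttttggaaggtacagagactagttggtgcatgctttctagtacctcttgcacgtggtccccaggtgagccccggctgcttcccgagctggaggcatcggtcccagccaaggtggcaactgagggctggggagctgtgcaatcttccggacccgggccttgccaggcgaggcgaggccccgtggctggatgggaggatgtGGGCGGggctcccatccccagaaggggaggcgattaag
The Inhba window held 1 TATAAA, 2 CTAATTG and 1 CTTTGA. The Inhbb and Bmp4 windows each held 1 GGGCGG, and so did that of Bmp6. The Bmp5 window held none of the 5 motifs. Of the 32851 windows of this length in the table, 12.4% held TATAAA, 32.7% GGGCGG, 1.77% CTAATTG, 13.8% CTTTGA and 9.59% GGCGCC. A match describes letters in a window and does not show a site in use.

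Bmp4 was the ligand gene with the highest level per kilobase in all 8 groups, with 34.2 ± 1.12 CPM per kilobase in Cap_L and 68.2 ± 0.798 in Bell_B (mean ± SD, n = 3). Inhba came next in all groups other than the cultures, at 30.3 ± 2.33 CPM per kilobase in Cap_L. In Cap_L_2D the gene after Bmp4 was Bmp2, at 31.5 ± 0.332 CPM per kilobase. In Cap_B_2D it was Bmp6, at 7.14 ± 0.159, close to Bmp2 at 6.82 ± 0.385. Bmp5, Gdf5, Gdf6 and Inhbb were low in all groups, with Bmp5 in Cap_L_2D the highest of their levels at 4.42 ± 0.199. Inhbb in Cap_W was the lowest of all, at 0.0746 ± 0.0356.

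**Figure D1:**
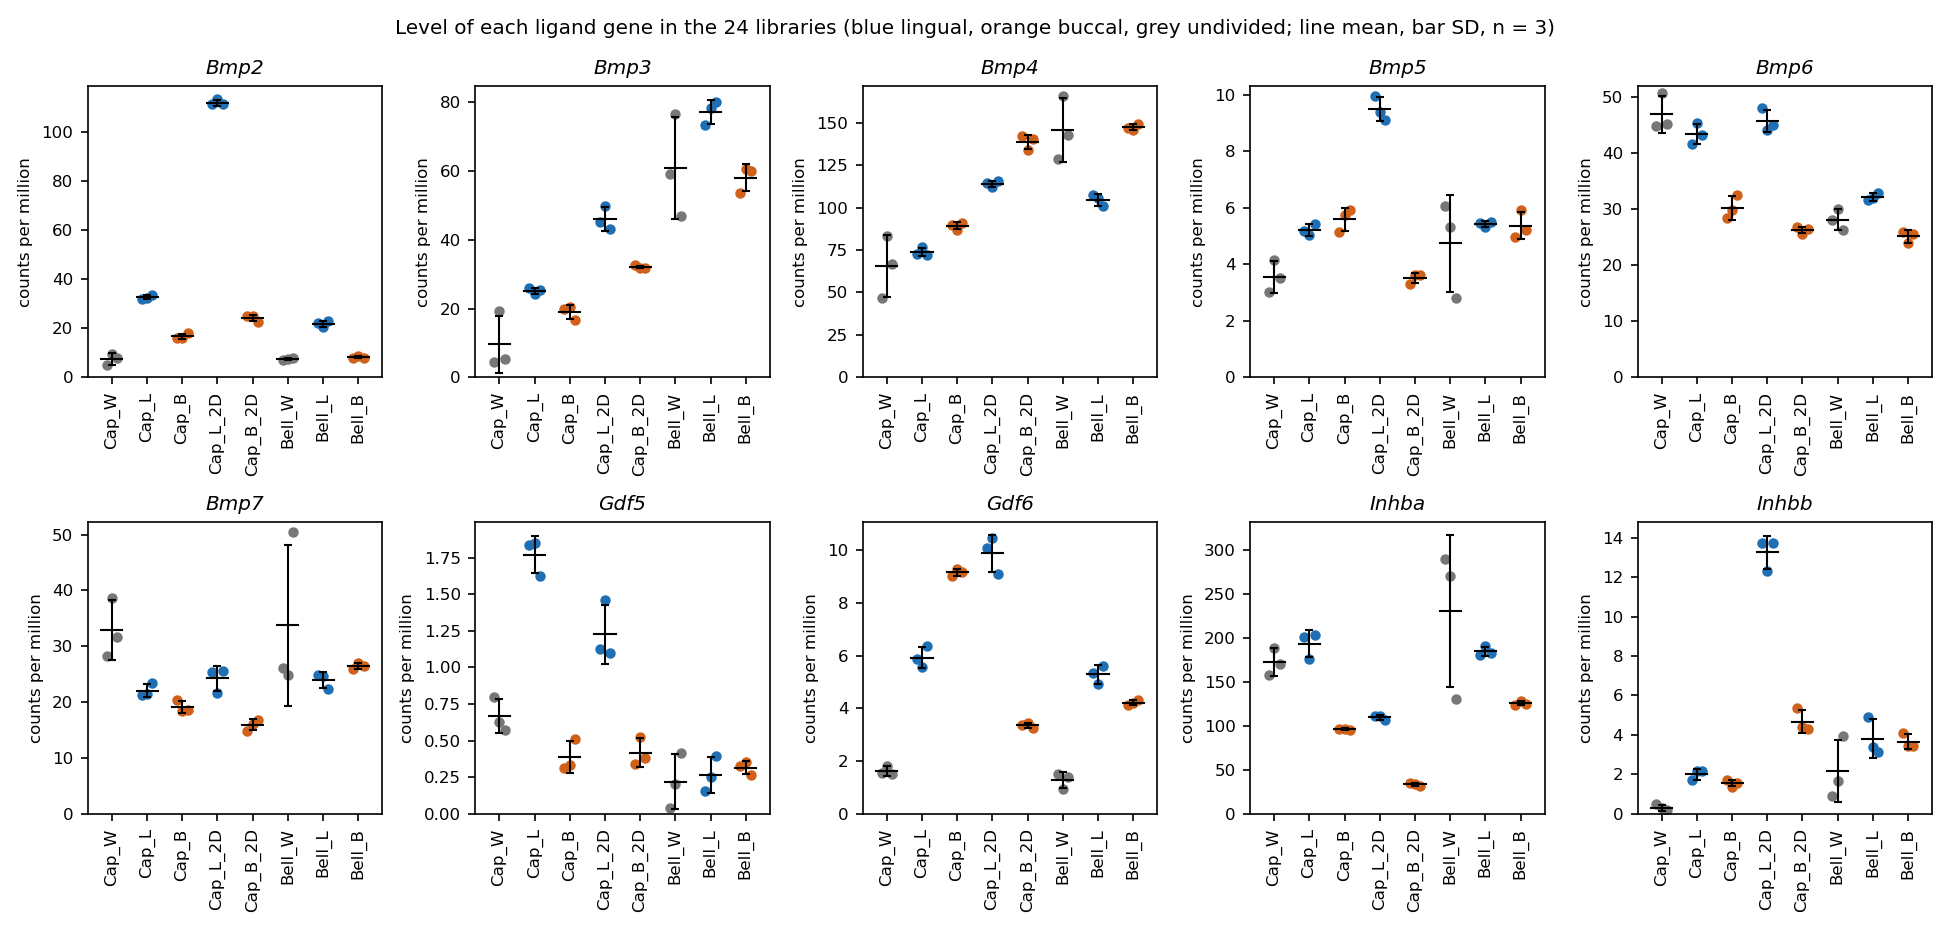
Level of each of the 10 ligand genes in the 24 libraries, in CPM on a linear axis that starts at 0. Points are libraries (blue lingual, orange buccal, grey undivided), lines are means and bars SDs of 3 libraries. The 3 Cap_L_2D libraries stand above all others for Bmp2, Bmp5 and Inhbb.

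Between the lingual and buccal parts, 4 ligand genes were called at the cap stage, 2 at the bell stage and 9 after culture. This contrast rests on the fold limit of 0.5, since with no limit on the fold 8, 7 and 10 were called. No share of all genes is given for the counts with no limit, so they describe the members alone. Cap stage Bmp2, Gdf5 and Inhba were higher on the lingual side and Gdf6 on the buccal side. These 3 and 1 of 10 members tested compare with 7.10% and 10.4% of the 20653 genes tested. Bell stage Bmp2 and Inhba were higher on the lingual side, 2 of the 9 members tested against 6.88% of 21181 genes. None was higher in the buccal part, where 6.00% of genes were called. Gdf5 had too few counts to be tested there. In culture, 9 of 10 members were higher in Cap_L_2D than in Cap_B_2D, against 12.5% of the 21195 genes tested. None of the 10 was called higher in Cap_B_2D, where the share of all genes was also 12.5%. Bmp4 was the member not called. It ran the other way at all 3 pairings, higher in the buccal part, below the limit on the fold.

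The difference between the parts itself changed with culture for 7 of 10 members, Bmp2, Bmp5, Bmp6, Bmp7, Gdf6, Inhba and Inhbb, all further toward the lingual part. Of all 22098 genes, 19.5% changed in this direction and 16.0% in the other, at an adjusted p under 0.05 of the interaction with no limit on its size. With stage, it changed for 6 of 10 members. Bmp2 and Gdf6 shifted toward the lingual part, against 18.0% of 21931 genes, and Bmp4, Bmp7, Gdf5 and Inhba toward the buccal part, against 14.5%. With all 24 libraries in 1 fit, 5 of the 7 (Bmp2, Bmp5, Bmp6, Gdf6 and Inhba) were called for culture and 2 of the 6 (Gdf5 and Gdf6) for stage. No share of all genes is given for that fit. Markers of other cell types moved with these comparisons. Over 10 skeletal muscle markers the summed level was 3778–3949 CPM in Cap_B_2D against 318–342 in Cap_L_2D, and over 6 osteoblast markers it was 577–588 against 2351–2374. Over 10 epithelial markers it was 93.2–95.6 against 422–458. Cap stage muscle markers summed to 248–259 CPM in Cap_B and 24.8–25.5 in Cap_L, and bell stage ones to 952–976 in Bell_B and 134–144 in Bell_L. Other lists were higher in Cap_L than in Cap_B, as were Bmp2, Gdf5 and Inhba. Osteoblast markers summed to 971–982 CPM in Cap_L and 445–462 in Cap_B, cartilage markers (6 genes) to 260.0–277 and 134–138, and epithelial markers to 508–561 and 375–394. Of the 4 cartilage markers tested at the cap stage, 1 was called higher in the buccal and 3 in the lingual part (all genes 10.4% and 7.10%). Col2a1 averaged 239 CPM in Cap_L and 112 in Cap_B, while Hapln1 averaged 7.35 and 10.3. In Bell_L and Bell_B, macrophage markers summed to 279–286 and 142–148, epithelial markers to 816–849.5 and 587–607, and osteoblast markers to 727–749 and 556–560.4. Of the 5 osteoblast markers tested at the bell stage, 1 was called higher in the buccal and 1 in the lingual part (all genes 6.00% and 6.88%). Alpl averaged 298 CPM in Bell_L and 149 in Bell_B, while Spp1 averaged 1.73 and 5.26. Markers of Schwann cells and neurons (6 genes) were higher in the buccal part, at 41.6–45.0 against 24.8–27.5 in the cap stage. Endothelial markers (7 genes) summed to 423–427 CPM in Cap_L_2D and 173–175 in Cap_B_2D, and macrophage markers (6 genes) to 171–182 and 124–126. In a library of the parts, at most 2 muscle markers, 1 epithelial marker and 1 osteoblast marker were at or under 3 counts, and no endothelial or macrophage marker was. The part of other cell types in the differences of the ligand genes was not tested, and in bulk RNA fewer cells of a type and less RNA per cell cannot be told apart.

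**Figure D2:**
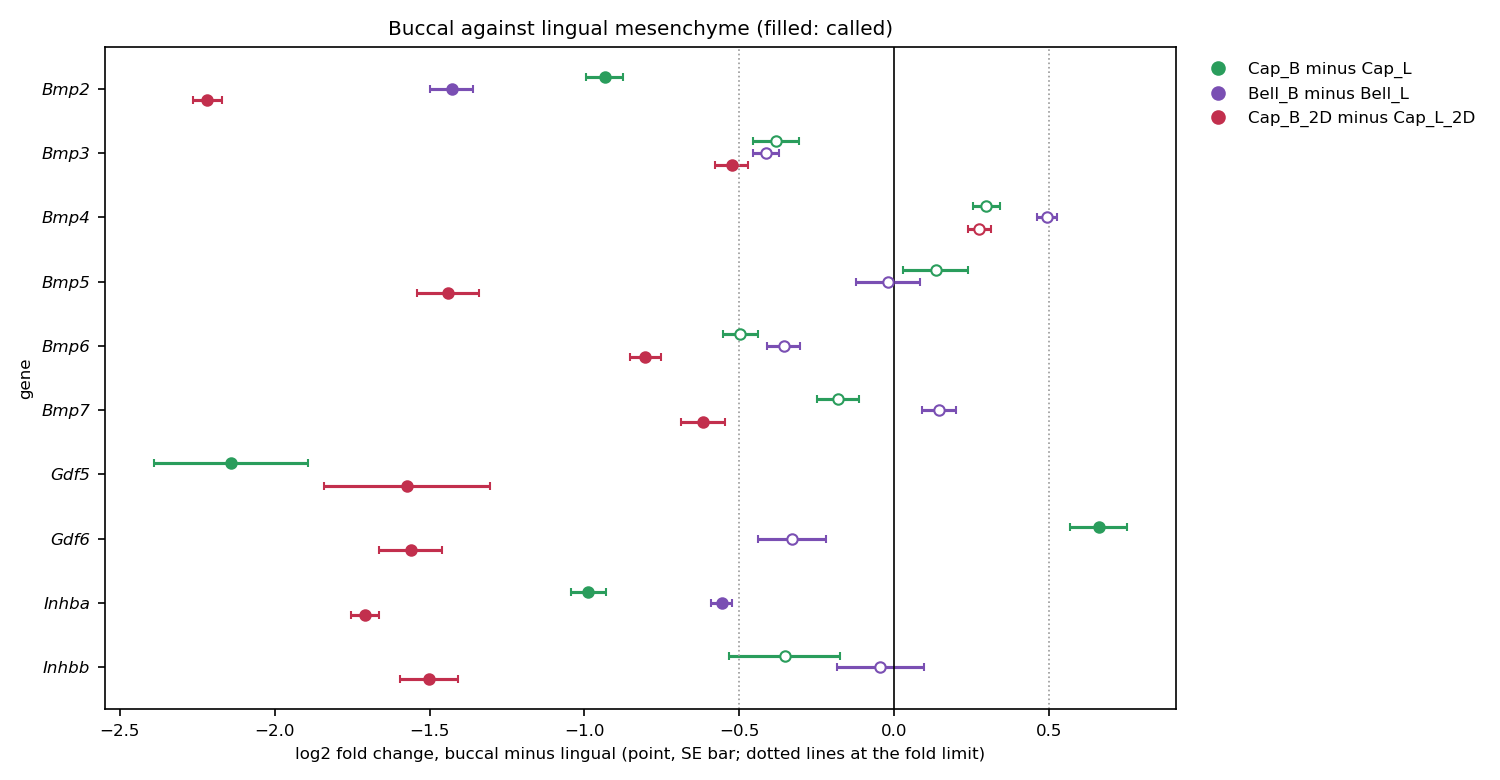
Difference between the buccal and lingual parts for each ligand gene at the cap stage, at the bell stage and after 2 days of culture, as the log2 ratio with its SE. Filled points were called, open points were not. In culture 9 of 10 points are filled and left of 0, while Bmp4 lies right of 0 in all 3 comparisons.

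**Figure D3:**
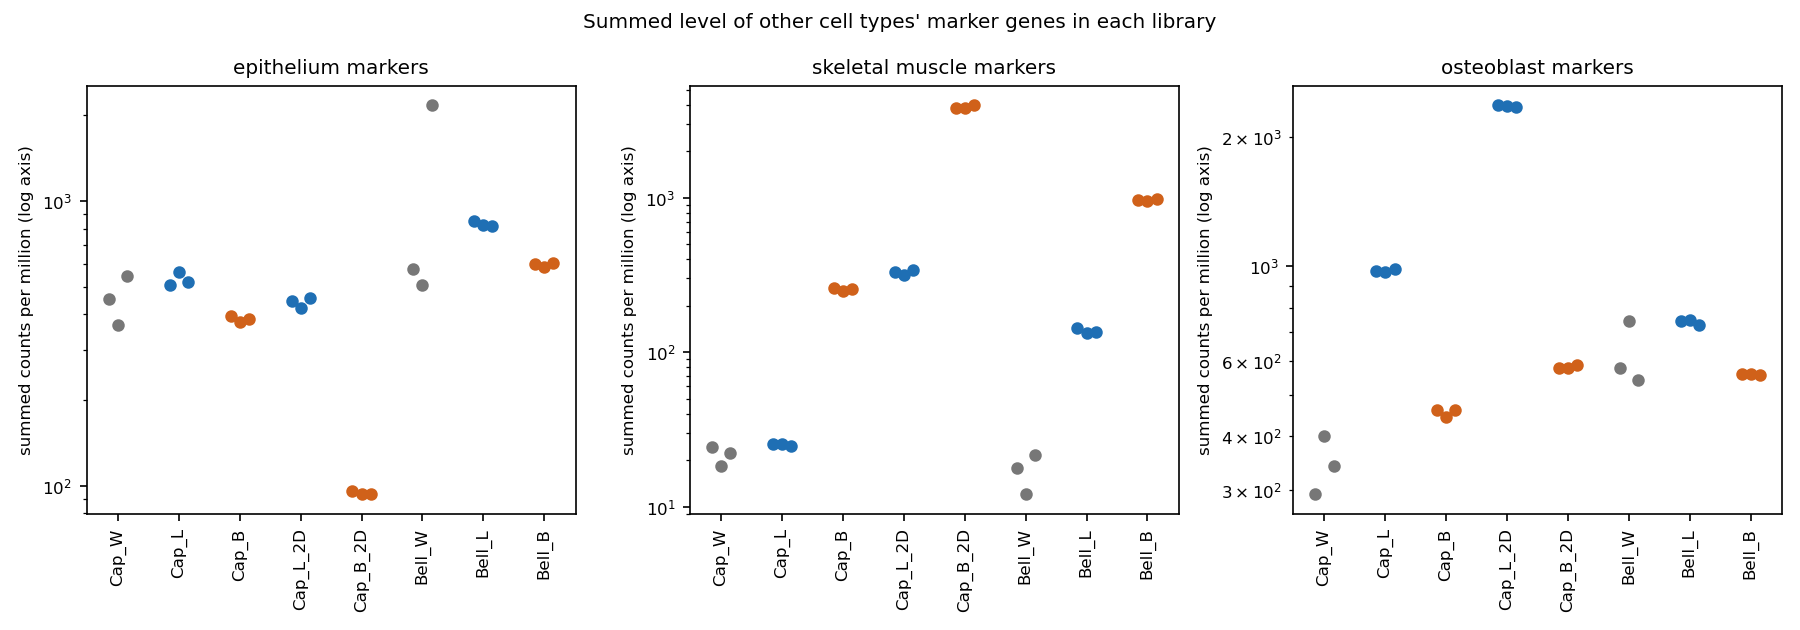
Summed CPM of the marker genes of epithelium, skeletal muscle and osteoblasts in each library, on log axes, with the groups as in the plot of ligand levels. Muscle markers are highest and epithelial markers lowest in Cap_B_2D, osteoblast markers are highest in Cap_L_2D, and 1 Bell_W library stands above the rest in epithelial markers.

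Bmp2 and Bmp4 encode closely related BMPs that share receptors. Bmp2 (ENSMUSG00000027358, GRCm39 chromosome 2, 133394079 to 133404805) was measured at 32.1, 32.5 and 33.6 CPM in Cap_L and at 16.2, 16.2 and 18.0 CPM in Cap_B. The lingual libraries were all higher, 1.91-fold in the fit (log2 ratio -0.94, SE 0.061, edgeR adjusted p = 4.96e-10). Bell stage values were 22.2, 20.6 and 22.8 CPM in Bell_L and 7.96, 8.54 and 7.94 CPM in Bell_B. The libraries again did not overlap, with a 2.69-fold difference (log2 ratio -1.43, SE 0.070, edgeR adjusted p = 8.37e-21). In culture Bmp2 stood at 112, 114 and 111 CPM in Cap_L_2D and 25, 25.1 and 22.7 CPM in Cap_B_2D. This was the largest fold between the parts among the members in culture, 4.65-fold (log2 ratio -2.22, SE 0.047, edgeR adjusted p = 8.13e-23). The lingual part had gained 3.40-fold over Cap_L (log2 ratio 1.77, SE 0.048, edgeR adjusted p = 1.55e-20), while Cap_B_2D over Cap_B stayed just under the fold limit (log2 ratio 0.49, SE 0.062, edgeR adjusted p = 1.94e-08) and passed it in 6 of the alternatives. From cap to bell Bmp2 fell in both parts, by a log2 ratio of -0.56 in the lingual part (edgeR adjusted p = 2.9e-09) and -1.05 in the buccal part (edgeR adjusted p = 8.11e-14). The change of its part difference was -1.28 on the log2 scale, SE 0.077, edgeR adjusted p = 2.12e-14 with culture, and -0.50 on the log2 scale, SE 0.092, edgeR adjusted p = 8.72e-05 with stage. The latter was not called with all 24 libraries in 1 fit (-0.47, edgeR adjusted p = 0.0526).

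Bmp4 (ENSMUSG00000021835, chromosome 14, 46620977 to 46628126) was measured at 72.8, 76.6 and 72.2 CPM in Cap_L and 90, 86.9 and 90.8 CPM in Cap_B. Its bell stage values were 108, 106 and 101 CPM in Bell_L and 147, 146 and 149 CPM in Bell_B. In culture it was at 114, 112 and 116 CPM in Cap_L_2D and 142, 134 and 140.2 CPM in Cap_B_2D. At each pairing every buccal library lay above every lingual one, by 1.23-fold, 1.41-fold and 1.21-fold, with edgeR adjusted p-values of 2.17e-05, 3.17e-16 and 9.9e-07. Among the alternatives, fitted with edgeR or DESeq2, the highest adjusted p was 0.0797 at the cap stage, 0.00258 at the bell stage and 0.0512 in culture. The bell difference lay at the fold limit and was called without Bell_L replicate 1 (0.51), Bell_L replicate 2 (0.50) or Bell_B replicate 2 (0.50 on the log2 scale). Bmp4 rose from cap to bell in the lingual part (log2 ratio 0.52, SE 0.043, edgeR adjusted p = 2.71e-10) and in the buccal part (log2 ratio 0.72, SE 0.035, edgeR adjusted p = 4.45e-18). The lingual call fell under the fold limit without Cap_L replicate 1, Cap_L replicate 3 or Bell_L replicate 1, at log2 ratios of 0.49 to 0.50. In culture Bmp4 rose by near the same amount in both, 1.53-fold in the lingual part (log2 ratio 0.62, SE 0.043, edgeR adjusted p = 3.31e-12) and 1.52-fold in the buccal part (log2 ratio 0.60, SE 0.035, edgeR adjusted p = 1.88e-16). The difference between these changes was -0.026 on the log2 scale, SE 0.059, edgeR adjusted p = 0.773, and was not called. With stage the part difference moved by 0.19 on the log2 scale, SE 0.055, edgeR adjusted p = 0.00821, which was not called with all 24 libraries in 1 fit (0.22, edgeR adjusted p = 0.448).

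The balance of Bmp2 to Bmp4 within a library does not depend on the scaling between libraries. Per kilobase, the ratio was 0.270 ± 0.0129 (SD, n = 3) in Cap_L and 0.114 ± 0.00542 in Cap_B. It was 0.127 ± 0.00984 in Bell_L and 0.0336 ± 0.00175 in Bell_B. In culture it was 0.597 ± 0.0147 in Cap_L_2D and 0.106 ± 0.00777 in Cap_B_2D. Lingual libraries had the higher ratio at all 3 pairings, with no overlap, and the cultured buccal libraries overlapped Cap_B. The undivided mesenchyme had ratios of 0.0686 ± 0.00283 in Cap_W and 0.0310 ± 0.00286 in Bell_W, the former below both parts of its stage.

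**Figure D4:**
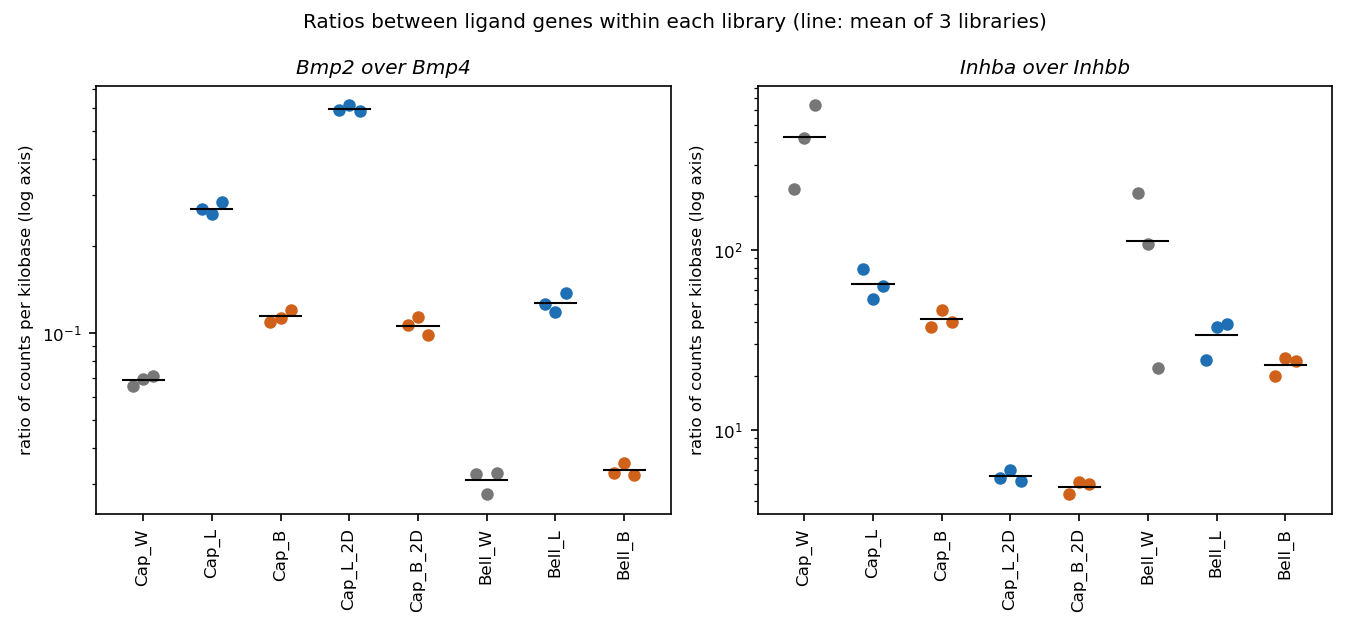
Ratio of Bmp2 to Bmp4 (left) and of Inhba to Inhbb (right) within each library, from counts per kilobase of unshared exon, on log axes. Points are libraries and lines the means of 3. Bmp2 over Bmp4 is highest in Cap_L_2D, and Inhba over Inhbb is lowest in the cultured groups, at 4.37 to 5.99 in their 6 libraries.

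Bmp5, Bmp6 and Bmp7 form a subgroup of closely related BMPs. Bmp7 is a ligand of kidney and eye development and Bmp6 is known for its part in iron regulation in the liver. Bmp5 (ENSMUSG00000032179, chromosome 9, 75682646 to 75807592) was at 5.18, 5.02 and 5.43 CPM in Cap_L and 5.14, 5.73 and 5.91 CPM in Cap_B, and at 9.95, 9.39 and 9.11 CPM in Cap_L_2D and 3.29, 3.62 and 3.61 CPM in Cap_B_2D. The parts overlapped before culture (log2 ratio 0.13, SE 0.10, edgeR adjusted p = 0.328) and stood apart after it (log2 ratio -1.44, SE 0.099, edgeR adjusted p = 3.43e-12). It had moved in opposite directions, 1.81-fold up in the lingual part (log2 ratio 0.85, SE 0.089, edgeR adjusted p = 6.13e-09) and 1.64-fold down in the buccal part (log2 ratio -0.72, SE 0.11, edgeR adjusted p = 1.43e-06). The change of the part difference was -1.58 on the log2 scale, SE 0.14, edgeR adjusted p = 1.92e-10. Bell stage Bmp5 averaged 5.42 ± 0.0990 (SD, n = 3) CPM in Bell_L and 5.37 ± 0.483 (SD, n = 3) in Bell_B, with overlapping libraries.

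Bmp6 (ENSMUSG00000039004, chromosome 13, 38529083 to 38684278) was at 41.6, 45.2 and 43.1 CPM in Cap_L and 28.3, 29.8 and 32.4 CPM in Cap_B, a difference at the fold limit (log2 ratio -0.50, SE 0.057, edgeR adjusted p = 9.7e-07) that was called without Cap_L replicate 1 (-0.53) or Cap_B replicate 3 (-0.55). After culture it was at 47.9, 44.1 and 45.0 CPM in Cap_L_2D and 26.7, 25.6 and 26.5 CPM in Cap_B_2D. The lingual libraries were higher with no overlap, by 1.74-fold (log2 ratio -0.80, SE 0.051, edgeR adjusted p = 5.99e-13). The larger difference in culture was called as an interaction (-0.31 on the log2 scale, SE 0.077, edgeR adjusted p = 0.00206). Neither part had changed past the fold limit from its own cap stage sample, with a log2 ratio of 0.064 in the lingual part (edgeR adjusted p = 0.27) and -0.24 in the buccal part (edgeR adjusted p = 0.000259). The bell stage average was 32.1 ± 0.643 (SD, n = 3) CPM in Bell_L and 25.1 ± 1.09 (SD, n = 3) in Bell_B, with no overlap and a difference below the fold limit (log2 ratio -0.36, SE 0.052, edgeR adjusted p = 2.9e-07).

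Bmp7 (ENSMUSG00000008999, chromosome 2, 172709805 to 172782114) had 25.4, 21.6 and 25.6 CPM in Cap_L_2D and 14.8, 16.1 and 16.9 CPM in Cap_B_2D. The cultured lingual libraries were the higher ones (log2 ratio -0.62, SE 0.071, edgeR adjusted p = 5.23e-08). Before culture it averaged 22.1 ± 1.15 (SD, n = 3) CPM in Cap_L and 19.1 ± 1.08 (SD, n = 3) in Cap_B. The order had turned by the bell stage, with 23.9 ± 1.38 (SD, n = 3) in Bell_L and 26.4 ± 0.570 (SD, n = 3) in Bell_B, and the turn with stage was 0.32 on the log2 scale, SE 0.087, edgeR adjusted p = 0.00499. Both differences were below the fold limit, at log2 ratios of -0.18 and 0.14. From cap to bell Bmp7 in the buccal part lay just under the limit (log2 ratio 0.46, SE 0.061, edgeR adjusted p = 1.04e-07) and was called without Cap_B replicate 1 (0.51). With culture the part difference moved by -0.44 on the log2 scale, SE 0.10, edgeR adjusted p = 0.001. With all 24 libraries in 1 fit, neither interaction of Bmp7 was called (0.35, edgeR adjusted p = 0.441 for stage and -0.40, edgeR adjusted p = 0.312 for culture).

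Bmp3 encodes a member that antagonizes the osteogenic BMPs and limits bone density. Bmp3 (ENSMUSG00000029335, chromosome 5, 99002274 to 99032255) was at 25.9, 24.2 and 25.5 CPM in Cap_L and 19.8, 20.5 and 16.7 CPM in Cap_B. Its bell stage values were 73.2, 78.2 and 80.1 CPM in Bell_L and 53.6, 60.6 and 60.0 CPM in Bell_B. Every bell library of a part lay above every cap library of that part, with a 3.10-fold rise in the lingual part (log2 ratio 1.63, SE 0.058, edgeR adjusted p = 1.23e-17) and a 3.05-fold rise in the buccal part (log2 ratio 1.61, SE 0.061, edgeR adjusted p = 5.8e-21). The difference between these rises was -0.037 on the log2 scale, SE 0.090, edgeR adjusted p = 0.79, and was not called. In culture Bmp3 rose in both parts to 46.0 ± 3.49 (SD, n = 3) CPM in Cap_L_2D (log2 ratio 0.86, SE 0.060, edgeR adjusted p = 3.13e-12) and 32.1 ± 0.392 (SD, n = 3) in Cap_B_2D (log2 ratio 0.72, SE 0.064, edgeR adjusted p = 1.06e-11). The lingual part was the higher one at all 3 pairings, with no overlap, and of these was called in culture alone (log2 ratio -0.53, SE 0.054, edgeR adjusted p = 7.76e-09). The part difference moved by -0.15 on the log2 scale, SE 0.095, edgeR adjusted p = 0.24 with culture, not called, but called without Cap_B replicate 3 (-0.24, edgeR adjusted p = 0.0454). The call between the cultured parts was lost without Cap_L_2D replicate 2 (-0.46) and with all 24 libraries in 1 fit (-0.52, edgeR adjusted p = 0.153).

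Gdf5 and Gdf6 are closely related ligands known for the formation of joints. Gdf5 (ENSMUSG00000038259, chromosome 2, 155782943 to 155787287) was low, at 51, 66 and 46 counts in the Cap_L libraries and 7, 8 and 13 counts in Cap_B. The values were 1.84, 1.85 and 1.62 CPM in Cap_L and 0.316, 0.335 and 0.512 CPM in Cap_B. The lingual part was 4.41-fold higher (log2 ratio -2.14, SE 0.25, edgeR adjusted p = 1.35e-06). Gdf5 fell in the lingual part to 0.268 ± 0.123 (SD, n = 3) CPM at the bell stage (log2 ratio -2.66, SE 0.28, edgeR adjusted p = 1.53e-08), where 0.316 ± 0.0461 (SD, n = 3) CPM was measured in Bell_B. In culture 1.12, 1.46 and 1.10 CPM in Cap_L_2D stood against 0.338, 0.528 and 0.383 CPM in Cap_B_2D (log2 ratio -1.57, SE 0.27, edgeR adjusted p = 1.96e-05). The fall from Cap_L to Cap_L_2D (log2 ratio -0.55, SE 0.20, edgeR adjusted p = 0.02) was lost with DESeq2 (DESeq2 adjusted p = 0.0874), with all 24 libraries in 1 fit, and without Cap_L_2D replicate 1 (-0.51) or replicate 3 (-0.46). The difference between the parts moved toward the buccal part with stage (2.34 on the log2 scale, SE 0.49, edgeR adjusted p = 0.000432). Gdf5 had 4 to 12 counts per library in Bell_L and 8 to 10 in Bell_B, and was not tested between them. It passed the count filter through Cap_L, where it was high, so the cap and stage calls describe that group. With at least 10 counts required in every library, Gdf5 dropped out of both, leaving 3 members called between the cap parts and 5 with stage.

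Gdf6 (ENSMUSG00000051279, chromosome 4, 9844372 to 9862345) had opposite orders of the parts before and after culture. It was at 5.87, 5.55 and 6.35 CPM in Cap_L and 9.02, 9.28 and 9.18 CPM in Cap_B, higher in the buccal part (log2 ratio 0.66, SE 0.092, edgeR adjusted p = 1.24e-05). After culture it was at 10.1, 10.4 and 9.11 CPM in Cap_L_2D and 3.35, 3.45 and 3.26 CPM in Cap_B_2D, higher in the lingual part (log2 ratio -1.56, SE 0.10, edgeR adjusted p = 9.74e-13). Gdf6 rose in the lingual part (log2 ratio 0.73, SE 0.093, edgeR adjusted p = 1.85e-07) and fell in the buccal part (log2 ratio -1.49, SE 0.097, edgeR adjusted p = 4.21e-15), and the change of the part difference was -2.22 on the log2 scale, SE 0.13, edgeR adjusted p = 2.39e-14, the largest among the members. From cap to bell it fell in the buccal part to 4.21 ± 0.0961 (SD, n = 3) CPM (log2 ratio -1.12, SE 0.094, edgeR adjusted p = 5.89e-12) and averaged 5.29 ± 0.348 (SD, n = 3) CPM in Bell_L, with libraries that overlapped Cap_L (log2 ratio -0.14, SE 0.10, edgeR adjusted p = 0.266). The part difference shifted with stage by -0.99 on the log2 scale, SE 0.14, edgeR adjusted p = 1.05e-06.

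Inhba and Inhbb encode the beta subunits of activin A and activin B. Inhba (ENSMUSG00000041324, chromosome 13, 16186436 to 16206206) was at 200.4, 176 and 204 CPM in Cap_L and 96.6, 96.5 and 94.7 CPM in Cap_B. The lingual part was 1.98-fold higher (log2 ratio -0.99, SE 0.056, edgeR adjusted p = 6.7e-11). Its bell stage values were 180.4, 190.4 and 183 CPM in Bell_L and 123, 128 and 125 CPM in Bell_B. The libraries did not overlap (log2 ratio -0.56, SE 0.033, edgeR adjusted p = 4.25e-18), and the part difference was smaller than at the cap stage (0.42 on the log2 scale, SE 0.066, edgeR adjusted p = 8.16e-06; with all 24 libraries in 1 fit 0.45, edgeR adjusted p = 0.256). In culture Inhba stood at 112, 111 and 106 CPM in Cap_L_2D and 35.1, 33.9 and 31.9 CPM in Cap_B_2D. It had fallen in both parts, 1.78-fold in the lingual part (log2 ratio -0.83, SE 0.051, edgeR adjusted p = 2.98e-13) and 2.92-fold in the buccal part (log2 ratio -1.55, SE 0.040, edgeR adjusted p = 6.39e-26), and the part difference had widened (-0.73 on the log2 scale, SE 0.071, edgeR adjusted p = 1.09e-09). From cap to bell the lingual libraries of Inhba overlapped (log2 ratio -0.053, SE 0.050, edgeR adjusted p = 0.406), and the buccal ones rose by less than the fold limit (log2 ratio 0.38, SE 0.036, edgeR adjusted p = 8.83e-11). Cap_B_2D was the lowest of the 8 groups, and the next lowest were Cap_B and Cap_L_2D.

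Inhbb (ENSMUSG00000037035, chromosome 1, 119343195 to 119349978) went the other way in culture. It was at 1.69, 2.19 and 2.15 CPM in Cap_L and 1.71, 1.38 and 1.58 CPM in Cap_B, and in culture at 13.7, 12.3 and 13.7 CPM in Cap_L_2D and 5.35, 4.40 and 4.28 CPM in Cap_B_2D. All cultured libraries lay above all cap libraries of their part, 6.50-fold in the lingual part (log2 ratio 2.701, SE 0.13, edgeR adjusted p = 2.22e-15) and 2.95-fold in the buccal part (log2 ratio 1.56, SE 0.15, edgeR adjusted p = 6.16e-11). The parts overlapped before culture (log2 ratio -0.35, SE 0.18, edgeR adjusted p = 0.125) and stood apart in culture (log2 ratio -1.50, SE 0.093, edgeR adjusted p = 3.77e-13). The larger rise in the lingual part was called as an interaction (-1.15 on the log2 scale, SE 0.21, edgeR adjusted p = 4.51e-05), but not with all 24 libraries in 1 fit (-1.13, edgeR adjusted p = 0.0785). From cap to bell Inhbb rose to 3.81 ± 0.974 (SD, n = 3) CPM in Bell_L (log2 ratio 0.91, SE 0.16, edgeR adjusted p = 4.2e-05) and 3.65 ± 0.381 (SD, n = 3) in Bell_B (log2 ratio 1.23, SE 0.16, edgeR adjusted p = 7.53e-08). The ratio of Inhba to Inhbb per kilobase was 65.2 ± 12.7 (SD, n = 3) in Cap_L and 41.4 ± 4.65 in Cap_B. It was 5.52 ± 0.424 in Cap_L_2D and 4.82 ± 0.401 in Cap_B_2D, so that Inhba remained the more abundant activin subunit transcript in every library of the parts.

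Counted over the members, the cap to bell comparison called 3 genes up (Bmp3, Bmp4 and Inhbb) and 2 down (Bmp2 and Gdf5) in the lingual part, against 14.2% and 5.78% of 21425 genes tested. In the buccal part 3 were up (Bmp3, Bmp4 and Inhbb) and 2 down (Bmp2 and Gdf6), against 12.0% and 6.73% of 21992. After culture 6 members were up in the lingual part (Bmp2, Bmp3, Bmp4, Bmp5, Gdf6 and Inhbb) and 2 down (Gdf5 and Inhba), against 19.6% and 15.9% of 21425. In the buccal part 3 were up (Bmp3, Bmp4 and Inhbb) and 3 down (Bmp5, Gdf6 and Inhba), against 17.9% and 16.6% of 21992. The stage and culture comparisons of a part share its 3 cap libraries. Markers moved with stage and with culture. From Cap_L to Bell_L, macrophage markers went from 69.5–71.8 to 279–286 CPM, epithelial markers from 508–561 to 816–849.5, and cartilage markers from 260.0–277 to 62.5–65.5. The cartilage sum followed Col2a1, which averaged 239 CPM in Cap_L and 31.0 in Bell_L. Of the 5 cartilage markers tested there, 2 were called up and 1 down, against 14.2% and 5.78% of all genes. From Cap_B to Bell_B, macrophage markers went from 78.3–81.8 to 142–148, epithelial markers from 375–394 to 587–607, and muscle markers from 248–259 to 952–976. With culture, osteoblast markers in the lingual part went from 971–982 to 2351–2374, and epithelial markers in the buccal part from 375–394 to 93.2–95.6. Of the 6 osteoblast markers in the lingual part, 4 were called up and 1 down, against 19.6% and 15.9% of all genes. Ibsp averaged 120 CPM in Cap_L and 1191 in Cap_L_2D, while Runx2 averaged 445.5 and 294.3. Over 6 erythroid markers, all globin genes, the summed level was 2905–3599 CPM in Cap_L and 3324–3457 in Cap_B, and 33.2–39.2 in Cap_L_2D and 35.4–41.2 in Cap_B_2D. Muscle markers rose in both cultured parts, 10 of 10 called in each. Their part in the changes of the ligand genes was not tested.

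**Figure D5:**
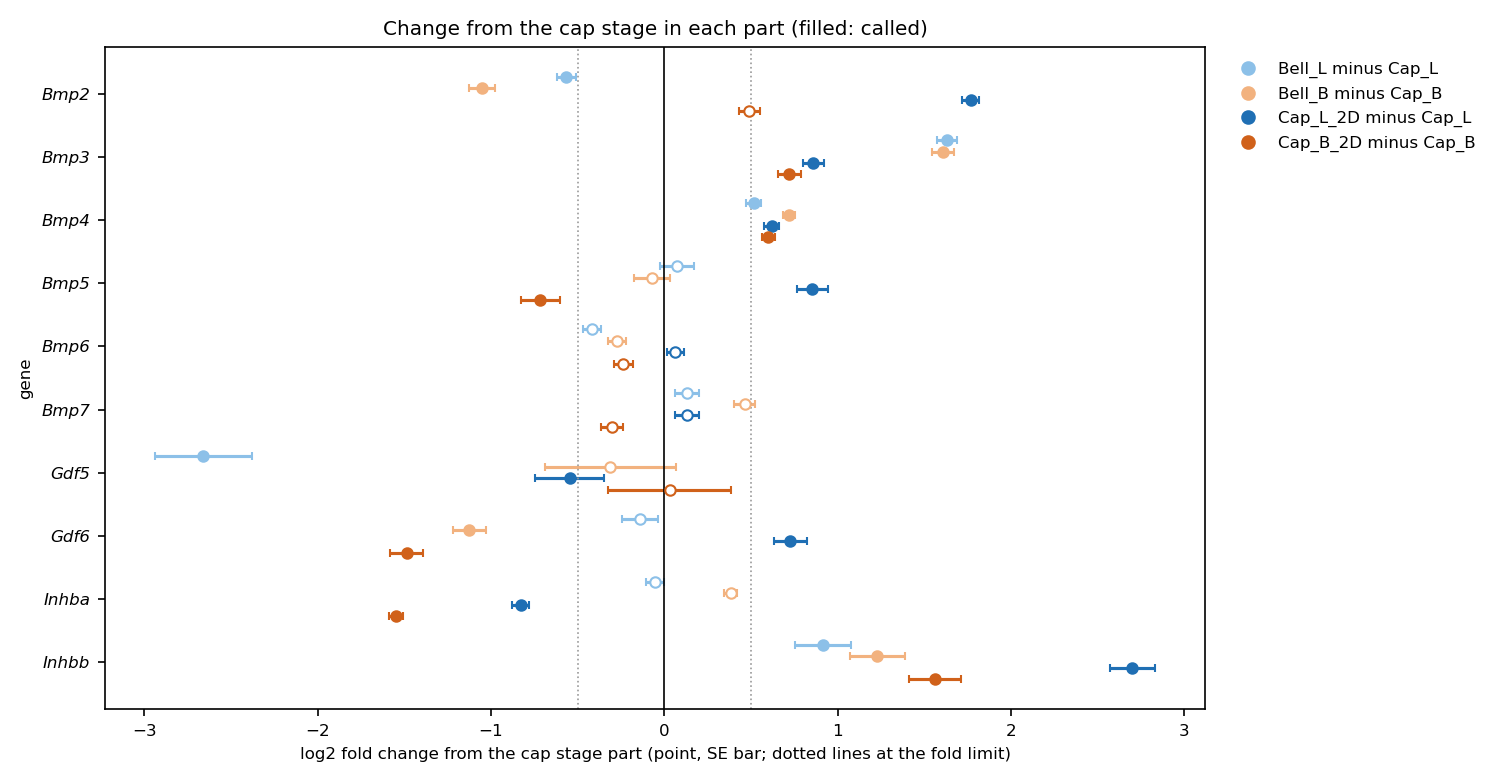
Change of each ligand gene from the cap stage to the bell stage (pale) and to 2 days of culture (dark) in the lingual part (blue) and the buccal part (orange), as the log2 ratio with its SE. Filled points were called. The changes of Bmp4 lie close together at 0.52 to 0.72, while Bmp5 and Gdf6 change in opposite directions in the cultured parts.

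In the undivided mesenchyme, Bmp3, Bmp4 and Inhbb were called higher at the bell stage and Bmp6 lower. These were 3 and 1 of 10 members, against 10.3% and 4.21% of 20940 genes tested. Bmp4 was at 46.8, 83.3 and 66.7 CPM in Cap_W and 129, 166 and 143 CPM in Bell_W. The stages did not overlap (log2 ratio 1.14, SE 0.20, edgeR adjusted p = 0.00837). Bmp6 was at 44.8, 50.6 and 45.2 CPM in Cap_W and 28.02, 30.0 and 26.2 CPM in Bell_W. It was lower in all bell libraries (log2 ratio -0.74, SE 0.10, edgeR adjusted p = 0.00343). Bmp3 was at 4.51, 19.2 and 5.18 CPM in Cap_W and 59.2, 76.5 and 46.8 CPM in Bell_W, with 1 cap library well above the other two (log2 ratio 2.63, SE 0.53, edgeR adjusted p = 0.0145). Without Cap_W replicate 2, the high one, the log2 ratio was 3.63, still called. Its call was lost without Cap_W replicate 3 (2.33, edgeR adjusted p = 0.0503) or Bell_W replicate 2 (2.45, edgeR adjusted p = 0.0573). Inhbb was at 0.478, 0.298 and 0.177 CPM in Cap_W and 0.925, 1.65 and 3.92 CPM in Bell_W, from 4 to 9 counts in the cap libraries (log2 ratio 2.77, SE 0.64, edgeR adjusted p = 0.0249). Its call was lost without Cap_W replicate 2 (2.72, edgeR adjusted p = 0.0842), Cap_W replicate 3 (2.49, edgeR adjusted p = 0.0956) or Bell_W replicate 2 (2.93, edgeR adjusted p = 0.0587). Without Bell_W replicate 3, the highest for Inhbb and the library high in epithelial markers, the log2 ratio was 2.02, still called.

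Of the members not called, Bmp2 averaged 7.46 ± 2.26 (SD, n = 3) CPM in Cap_W and 7.39 ± 0.442 (SD, n = 3) in Bell_W, with overlapping libraries. Bmp5 averaged 3.55 ± 0.557 (SD, n = 3) and 4.74 ± 1.71 (SD, n = 3), also with overlap. Gdf5 had 13 to 19 counts per library in Cap_W and 1 to 13 in Bell_W (log2 ratio -1.56, SE 0.65, edgeR adjusted p = 0.158) and was called with all 24 libraries in 1 fit (-1.52, edgeR adjusted p = 0.00636). Without Bell_W replicate 3 its log2 ratio was -2.44, not called. Bell_W replicate 3, the library high in epithelial markers, was also apart in ligand genes. For Inhba, 289.7, 270.1 and 131 CPM in Bell_W were measured, and 158, 189 and 170.2 CPM in Cap_W. Among the libraries left out in turn, Bell_W replicate 3 was the one without which Inhba was called higher at the bell stage (0.70, edgeR adjusted p = 0.0115, against log2 ratio 0.41, SE 0.28, edgeR adjusted p = 0.369 with it). For Bmp7, 26.1, 24.8 and 50.4 CPM in Bell_W were measured, the last above the other 23 libraries. The part of the epithelial RNA in these values was not tested.

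The undivided libraries did not always lie between their parts. At the cap stage, Bmp7 in all 3 Cap_W libraries was above all 6 libraries of the parts, and Bmp2, Bmp5, Gdf6 and Inhbb were below all of them. These 1 and 4 of 10 members compare with 11.1% and 18.6% of 21215 genes, counted without a test. At the bell stage none was above, against 8.06% of 21887 genes, and Bmp2 and Gdf6 were below, against 10.9%. Gdf6 averaged 1.62 ± 0.173 (SD, n = 3) CPM in Cap_W and 1.29 ± 0.300 (SD, n = 3) in Bell_W, below every library of the parts. Several marker lists were below both parts in Cap_W too. Endothelial markers summed to 194–200.3 CPM in Cap_W, against 471–482 in Cap_L and 418–434 in Cap_B. Macrophage markers summed to 30.8–39.3, against 69.5–71.8 and 78.3–81.8, and osteoblast markers to 293–400.4, against 971–982 and 445–462. Muscle markers in Cap_W, at 18.3–24.3, were close to those of Cap_L, and in Bell_W, at 12.0–21.5, below both parts. Their part in the levels of the ligand genes was not tested.

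The genes that act on these ligands were counted in lists of the pathway. Of 17 extracellular antagonists, 15 were tested. Of these, 6 were higher in the buccal and 4 in the lingual part of the cap stage, against 10.4% and 7.10% of all genes, with a median log2 ratio of 0.22 against -0.006 over all genes. Follistatin (Fst), which binds activins, was lower in the buccal part, log2 ratio -2.43, SE 0.055, edgeR adjusted p = 1.5e-16, and Grem1, a BMP antagonist, likewise (log2 ratio -1.69, SE 0.096, edgeR adjusted p = 6.06e-11). Both are among the 4 higher in the lingual part. Tgfbr3, a receptor gene kept on this list, was higher in the buccal part (log2 ratio 1.055, SE 0.055, edgeR adjusted p = 1.68e-11). In culture 1 was higher in the buccal and 7 in the lingual part (all genes 12.5% and 12.5%, median -0.19, all genes 0.001), led by Sostdc1 (log2 ratio -2.36, SE 0.042, edgeR adjusted p = 2.57e-24) and Fst (log2 ratio -2.10, SE 0.041, edgeR adjusted p = 1.98e-23). From Cap_L to Cap_L_2D 11 rose and 0 fell (all genes 19.6% and 15.9%, median 1.00, all genes -0.032), with the noggin gene Nog at a log2 ratio of 2.45 (edgeR adjusted p = 1.04e-16). From Cap_B to Cap_B_2D 6 rose and 4 fell (all genes 17.9% and 16.6%, median 0.22, all genes -0.020), with Nog at 2.03 (edgeR adjusted p = 8.67e-19).

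The list of receptors, co-receptors and Smads followed. Of 20 listed, 18 were tested at the cap stage, with 4 higher in the buccal and 2 in the lingual part (all genes 10.4% and 7.10%, median log2 ratio 0.13, all genes -0.006). In culture 5 of 19 were higher in the buccal and 3 in the lingual part (all genes 12.5% and 12.5%, median 0.046, all genes 0.001). Bmpr1b, a type I BMP receptor, was higher in Cap_B_2D, log2 ratio 3.24, SE 0.10, edgeR adjusted p = 5.2e-19. Acvrl1, a type I receptor known from endothelium, was higher in Cap_L_2D (log2 ratio -2.58, SE 0.050, edgeR adjusted p = 1.65e-23), and Hjv, a BMP co-receptor expressed in skeletal muscle and liver, was higher in Cap_B_2D (log2 ratio 3.48, SE 0.080, edgeR adjusted p = 5.94e-22). Between the cultured parts, endothelial and muscle markers differed in the same directions, as given above. From Cap_L to Cap_L_2D Acvrl1 rose (log2 ratio 1.365, SE 0.053, edgeR adjusted p = 2.83e-17), while endothelial markers went from 471–482 to 423–427 CPM. From Cap_B to Cap_B_2D both were lower, with Acvrl1 averaging 22.3 and 16.4 CPM and endothelial markers summing to 418–434 and 173–175. The part of these cell types was not tested. From cap to bell, 4 of 19 rose and 2 fell in the lingual part (all genes 14.2% and 5.78%, median 0.026, all genes 0.002). In the buccal part 4 of 18 rose and 1 fell (all genes 12.0% and 6.73%, median -0.096, all genes 0.005).

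Of 15 genes known to respond to BMP or activin signals, 14 were tested in each comparison. At the cap stage 0 were higher in the buccal and 6 in the lingual part (all genes 10.4% and 7.10%, median log2 ratio -0.37, all genes -0.006). Bambi, a decoy receptor induced by BMPs, led in the lingual direction (log2 ratio -1.42, SE 0.062, edgeR adjusted p = 1.38e-12). Bell stage counts were 1 and 3 (all genes 6.00% and 6.88%, median 0.010). In culture they were 1 and 8 (all genes 12.5% and 12.5%, median -0.74, all genes 0.001), with Msx2 (log2 ratio -2.83, SE 0.12, edgeR adjusted p = 9.63e-17) and Bambi (log2 ratio -2.18, SE 0.052, edgeR adjusted p = 1.1e-21) among the higher in the lingual part. From Cap_L to Cap_L_2D 11 rose and 2 fell (all genes 19.6% and 15.9%, median 0.71, all genes -0.032). From Cap_B to Cap_B_2D 6 rose and 2 fell (all genes 17.9% and 16.6%, median 0.23, all genes -0.020). Id1, a direct Smad target, rose in both, by log2 ratios of 1.87 and 1.63 (edgeR adjusted p = 1.09e-17 and 8.45e-24). Msx1 fell in the buccal part (log2 ratio -1.23, SE 0.035, edgeR adjusted p = 9.43e-25). It was also lower in the lingual culture, averaging 460.5 CPM in Cap_L and 271.9 in Cap_L_2D, with no overlap.

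Other ligands of the family were counted last. Of 20 listed, 7 were tested between the parts at the cap stage (2 higher in the buccal and 2 in the lingual part, all genes 10.4% and 7.10%) and 11 in culture (3 and 3, all genes 12.5% and 12.5%). Gdf7, which is close to Gdf5 and Gdf6, was higher in Cap_B than in Cap_L (log2 ratio 1.95, SE 0.11, edgeR adjusted p = 4.34e-11), in Bell_B than in Bell_L (log2 ratio 1.02, SE 0.11, edgeR adjusted p = 2.1e-10) and in culture (log2 ratio 2.46, SE 0.13, edgeR adjusted p = 1.58e-14). Gdf10, a ligand close to Bmp3, was higher in Cap_L than in Cap_B (log2 ratio -0.72, SE 0.044, edgeR adjusted p = 2.11e-10) and in Cap_L_2D than in Cap_B_2D (log2 ratio -0.83, SE 0.039, edgeR adjusted p = 1.06e-15). At the bell stage its order was the opposite, with 177.5 ± 2.10 CPM in Bell_B and 152 ± 0.214 in Bell_L (SD, n = 3), and the part difference had moved with stage (log2 ratio 0.93, SE 0.053, edgeR adjusted p = 1.04e-14). The inhibin alpha subunit gene Inha, whose product turns activin subunits into inhibins, fell in culture in the lingual part (log2 ratio -0.78, SE 0.068, edgeR adjusted p = 2.36e-10) and the buccal part (log2 ratio -0.66, SE 0.053, edgeR adjusted p = 1.05e-12).

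For each member with a mean of at least 0 on the log2 CPM scale, the 2 genes with the most similar pattern over the 8 group means are given with the root mean square (RMS) difference of the centred log2 CPM, among 14032 named genes that had a mean log2 CPM of at least 2. They were Lmo7 (0.12) and Lag3 (0.18) for Bmp4, whose own RMS spread over the groups was 0.43. They were Gli2 (0.091) and Tle3 (0.11) for Bmp6 (spread 0.34). For Inhba (spread 0.81) the most similar gene was Slc35f2 (0.14). For Bmp3 (spread 1.02) they were Sparcl1 (0.17) and Arhgap30 (0.23), for Bmp5 (spread 0.42) Dclre1c (0.16) and Loxl2 (0.16), and for Bmp7 (spread 0.33) Rps4x (0.14) and Stard3nl (0.14). Bmp2 (spread 1.25), Gdf6 (spread 0.98) and Inhbb (spread 1.40) had less similar neighbours, Itga10 (0.45) and Nr4a2 (0.46), Hic1 (0.45) and Fez1 (0.51), and Rgcc (0.29) and Klf2 (0.39). Gdf5 lay below the mean level required. The patterns are means of the same 24 libraries and are given as a description.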

How the data were processed

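RNA of dental mesenchyme was sequenced in 24 libraries, 8 groups of 3, which were assigned from the titles in the labels. The authors deposited raw counts of read pairs per gene in 1 table. Per the file header these were made with featureCounts 2.0.0 in paired mode over the exons of an Ensembl annotation of GRCm39, ignoring strand and leaving out multi-mapping pairs and those over more than 1 gene. The aligner differs between the sources. The study's methods name STAR and, in another section, Subread 2.0.0 for alignment and counting. The submitters' processing notes name Bowtie 1.2.3, Trimmomatic 0.39 and Subread 2.0.3. The methods speak of RNA-seq in triplicate and embryos of 3 pregnant mice, but also of 2 biological replicates. The labels number 3 libraries per group, and the 3 may not all be biological replicates. The kit differs too, SMARTER in the labels and a stranded TruSeq kit in the methods. Gene symbols came from the GENCODE annotation by identifier, which named 56017 of 56748 genes.

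Comparisons were fitted with edgeR 4.0.16 in R 4.3.3 (TMM, filterByExpr, quasi-likelihood test, Benjamini-Hochberg adjustment over all genes tested), on the libraries of the 2 groups for the parts and the undivided mesenchyme, on 9 libraries for each part over stage and culture, and on 12 for the interactions of part with stage and with culture. The limits were an adjusted p under 0.05 and, other than for interactions, an absolute log2 fold change over 0.5. Totals of 20581720 to 39266497 counts set the precision, and floors of 3 counts cover counting error only. The least different pair of replicates of a group (chi-square of 1.34 per gene) differed by more than sampling noise, so none was counted as 1 library deposited more than once. This does not show that they are biological replicates. The functions were tested on simulated counts. Alternatives were RLE size factors, DESeq2 1.42.0, every gene kept, only genes with 10 or more counts in each library, a single fit of all 24 libraries, a replicate block, other limits on the fold and leaving out 1 library at a time. The 10 members and the gene lists were chosen with earlier results of these data known. All 10 members are named, and up to 3 genes per list and comparison, ranked by the size of the log2 fold change among called genes that had a mean log2 CPM of at least 2. Of the 20 receptors and Smads, 19 were matched in the table. For Inhba, 1 gene of similar pattern is not reported here.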

Additional observations from a re-analysis of the deposited data

Results flagged for a closer look

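For 13 pairs of member and interaction, the difference between the buccal and lingual parts differed between conditions by the test of the interaction itself (edgeR, adjusted p under 0.05, all values on the log2 scale, buccal minus lingual). Between the cap stage and culture, 7 members shifted toward the lingual part. The change was -1.28 for Bmp2, -1.58 for Bmp5, -0.31 for Bmp6 and -0.44 for Bmp7. It was -2.22 for Gdf6, -0.73 for Inhba and -1.15 for Inhbb. Between the cap and the bell stage, the change was -0.50 for Bmp2 and -0.99 for Gdf6, toward the lingual part. It was 0.19 for Bmp4, 0.32 for Bmp7, 2.34 for Gdf5 and 0.42 for Inhba, toward the buccal part. Gdf5 in the bell parts rests on 4 to 12 counts per library, and it was not tested between them. It passed the count filter through Cap_L, where it was high, so its change with stage describes that group. Dixon's test for a single far library was not applied to groups of 3.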

How the results depend on the processing

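Log2 fold changes of single members were recomputed under each alternative for the 76 pairs of member and comparison that were called in any fit or had an adjusted p below 0.05 in the reported one. Of 1083 recomputed values, 1046 stayed on the same side of the limits, 20 lost a call, 17 gained one and 0 changed direction. No share of all genes is given for the recounts below, so they describe the members alone. The number of members called moved by over 1.5 times in these cases. With no limit on the fold change it was 8 between the cap stage parts, 7 between the bell stage parts and 8 from Cap_B to Bell_B. With an absolute log2 fold change over 1 it was 1 between the cap stage parts, 1 between the bell stage parts, 2 from Cap_L to Bell_L, 2 from Cap_L to Cap_L_2D and 3 from Cap_B to Cap_B_2D. For the interaction with stage it was 2 with all 24 libraries in 1 fit, which takes in the widely spread undivided libraries, and 2 with an absolute log2 value over 0.5. Leaving out 1 library gave 2 to 5 members from Cap_W to Bell_W, with 2 without Cap_W replicate 3 or Bell_W replicate 2. In the other comparisons the range was 4 to 5 between the cap parts, 2 to 3 between the bell parts, 8 to 9 between the cultured parts, 4 to 5 from Cap_L to Bell_L, 5 to 6 from Cap_B to Bell_B, 7 to 8 from Cap_L to Cap_L_2D, 6 to 7 from Cap_B to Cap_B_2D, 6 for stage and 7 to 8 for culture. Pathway list counts stayed within 1.5 times in 550 of 576 recomputed values. Deviations of same-numbered libraries had correlations across genes of -0.24 to 0.24, over 0.1 in 3 of 24. Those of Cap_W and Bell_W were 0.081, 0.096 and 0.098. No pairing by number was seen, but such correlations cannot exclude one, since the labels do not tie the libraries to litters. With the replicate block, the number of members called was 4, 2 and 9 between the parts at the cap stage, at the bell stage and in culture, 4, 5 and 5 from cap to bell in the undivided, lingual and buccal mesenchyme, 8 and 6 for culture in the lingual and buccal part, and 6 and 7 for the interactions. Depth limits Gdf5 and, in Cap_W, Inhbb most, with 1 to 66 counts and 4 to 9 counts per library.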

Other observations

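The ratio of Inhba to Bmp4, the best covered members, was taken within each library per kilobase. It was 0.887 ± 0.0955 (SD, n = 3) in Cap_L and 0.363 ± 0.0113 in Cap_B, 0.596 ± 0.0251 in Bell_L and 0.288 ± 0.00762 in Bell_B. In culture it was 0.325 ± 0.0121 in Cap_L_2D and 0.0820 ± 0.00446 in Cap_B_2D. The ratio of Bmp7 to Bmp4 was 0.161 ± 0.0121 in Cap_L and 0.115 ± 0.00590 in Cap_B, 0.123 ± 0.00321 in Bell_L and 0.0964 ± 0.00263 in Bell_B, and 0.114 ± 0.00921 in Cap_L_2D and 0.0618 ± 0.00489 in Cap_B_2D, higher in the lingual libraries at each pairing.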
